A study of Mus musculus with 6 samples.

Results

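Solute carriers are membrane proteins that move nutrients, ions, metals, vitamins and signalling molecules across the plasma membrane and the membranes of lysosomes, the Golgi and other organelles. Many are driven by the sodium gradient that the sodium-potassium pump builds, others exchange one solute for another or simply let a solute flow down its gradient. In the alveolus they feed surfactant synthesis and keep the lining fluid thin, while in leukocytes they supply growth and strip metals from phagosomes. The genes described here carry a symbol of the form Slc or Slco followed by a family number and a letter. The mitochondrial Slc25a family was left out by name, and so were Slc34a2, Slc26a9, Slc16a3, Slc2a1 and Slc7a11. Of 13931 genes in the files, 251 matched the pattern, 40 of them Slc25a genes, and 206 remained. At 1 FPKM or more in at least 3 of 6 libraries, 182 of these were tested, from 45 families, and 24 stayed below that level, among them Slc1a1, Slc22a4, Slc7a8 and Slc14a1. The symbol alone decided membership, and 4 of the 182 have symbols taken from a carrier without being one. Slc9a3r1 and Slc9a3r2 are scaffold proteins of sodium-hydrogen exchangers, and Slc4a1ap and Slc7a6os are named for a partner and a neighbouring gene on the opposite strand. Members of carrier families can have other roles too, such as the escort chain Slc3a2 and the receptor Slc22a17 described below.

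The libraries came from cells prepared as alveolar epithelial type 2 (AT2) cells, the surfactant-making cells of the alveolus, from C57BL/6 mice. The 3 bleomycin libraries came from 3 mice exposed to multiple bleomycin at 1 U/kg, and the 3 PBS libraries from 3 mice exposed to multiple PBS. Bleomycin breaks DNA strands and is given to rodents to scar the lung. The values are FPKM, fragments scaled to transcript length and to the library's mapped fragments, summed over the listed transcripts of a gene. The number of reads behind a value is unknown. Fold changes are on the log2(FPKM + 1) scale, bleomycin over PBS, which understates the change of genes near 0, and a gene passed where its limma p, adjusted over all 12326 genes tested, was under 0.05.

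The levels of cell type markers differed between the groups. The 12 AT2 markers summed to between 3833 and 10737 FPKM in the bleomycin libraries, lowest in replicate 3, against 19318 to 27545 FPKM in the PBS libraries, and 11 of the 12 fell. The 7 pan-leukocyte markers summed to 860 to 1332 FPKM with bleomycin and 29.1 to 50.1 FPKM with PBS, and 6 of 7 rose. All 8 endothelial markers rose, from a list that summed to 281 to 529 FPKM with bleomycin and 26.9 to 29.0 FPKM with PBS, with Cldn5 listed at 0 in each PBS library. Of the 8, 2 were under 1 FPKM in every PBS library and passed the filter through the bleomycin libraries. The count of 8 is thus a description only. The 7 fibroblast and smooth muscle markers summed to 252 to 707 FPKM with bleomycin and 1355 to 1633 FPKM with PBS, and 4 fell, a number that was 1 without PBS replicate 1 or 3 or bleomycin replicate 2 and 2 without PBS replicate 2. The 4 tested erythroid markers summed to 502 to 996 FPKM with bleomycin and 14.4 to 322 FPKM with PBS. Of these 2 rose, but 4 did without PBS replicate 2 and 0 without any other 1 library. In bulk RNA a smaller share of a cell type and less RNA of a gene per cell cannot be told apart. The part of these shifts in the carrier values below was not tested.

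Solute carriers changed in both directions after bleomycin. In all 51 of 182 passed (28%), beside 22.5% of all genes tested. Of the 182, 24 rose (13.2%) and 27 fell (14.8%), where 15.2% of all genes tested rose and 7.34% fell. The 5 genes highest above PBS on the log2 scale were Slc28a2, Slc11a1, Slc15a3, Slc2a3 and Slc16a6, and the 5 lowest were Slc12a2, Slco4c1, Slc38a4, Slc39a8 and Slc7a10. The median log2 fold change of the 182 was -0.12, beside 0.09 over all genes tested. The groups' values did not overlap for 86 carriers (47.3%), where 43.6% of all genes tested did not overlap. The summed FPKM of the 182 was 1483, 1549 and 1720 in bleomycin replicates 1 to 3, below the 1937, 1807 and 1918 of the PBS replicates. As a share of all summed FPKM the groups overlapped, with 0.545, 0.589 and 0.662% with bleomycin and 0.644, 0.690 and 0.758% with PBS. After median scaling, under which the median over all genes was -0.07 and not 0.09, 19 carriers rose and 32 fell, and with quantile normalization 18 rose and 36 fell. Over all genes 12% rose and 11.5% fell after median scaling, and 11.6% rose and 11.7% fell with quantile normalization. A filter of 5 FPKM left 106 carriers, of which 13 rose and 18 fell. The number that fell dropped to between 14 and 18 without any 1 library other than bleomycin replicate 3, and was 25 without that one. Of the 51 carriers that passed, 26 also passed in each of the 6 fits that left out 1 library, 16 of them higher and 10 lower. Among carriers close to the threshold, Slc38a9, Slc38a10, Slc6a2, Slc6a9, Slc46a3, Slc12a4, Slc2a10 and Slc27a4 also no longer passed under 1 or more settings of scaling, pseudocount, filter or transcript choice (adjusted p 0.0502 to 0.194).

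**Figure D1:**
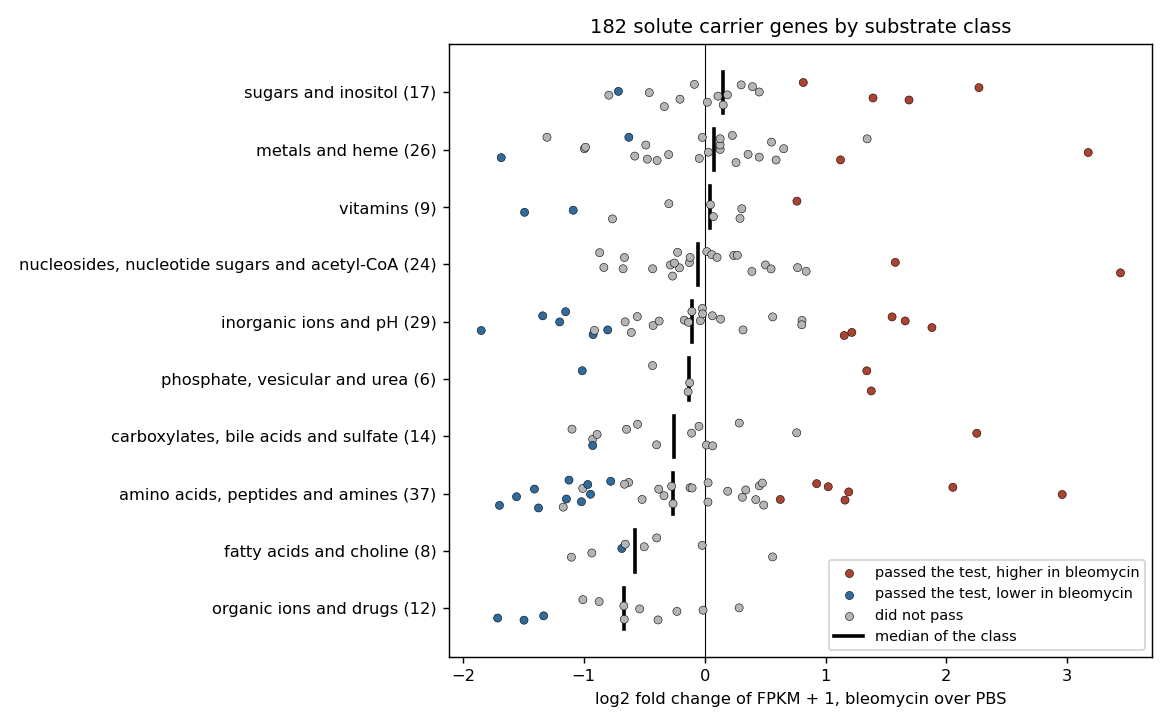
Log2 fold change of FPKM + 1 (bleomycin over PBS, horizontal axis) of each of the 182 carriers, in rows by the substrate class of its family, with the number of genes in brackets. Coloured points passed the test and black bars are class medians; the bars run from -0.67 for organic ions and drugs to 0.15 for sugars and inositol, and points that passed lie on both sides of 0 in 7 of the 10 classes.

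Of the 24 carriers that rose, 15 had a PBS mean under 2 FPKM (62.5%), beside 48.9% of all genes that rose, and the filter and the call partly set these counts. Of the 24, 8 were below 1 FPKM in every PBS library (33.3%, beside 29.2% of all genes that rose). These were Slc28a2, Slc11a1, Slc15a3, Slc37a2, Slc2a6, Slc2a9, Slc9a4 and Slc9a7. They passed the filter through the bleomycin libraries, where they were high, so their rises are descriptions only. Of the 27 that fell, 24 had a bleomycin mean of 1 FPKM or more. Another 2, Slc13a3 and Slc19a3, were below 1 FPKM in every bleomycin library. These 2 passed the filter through the PBS libraries, where they were high, so their falls are descriptions only. In all 27 families had a carrier that passed, and in 8 of them (Slc2, Slc4, Slc6, Slc7, Slc12, Slc15, Slc38 and Slc46) 1 or more rose and 1 or more fell. Without 1 library this number was between 3 and 5, except for 8 without bleomycin replicate 3, and it was 2 (Slc4 and Slc15) over the carriers that passed in all 6 such fits.

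**Figure D2:**
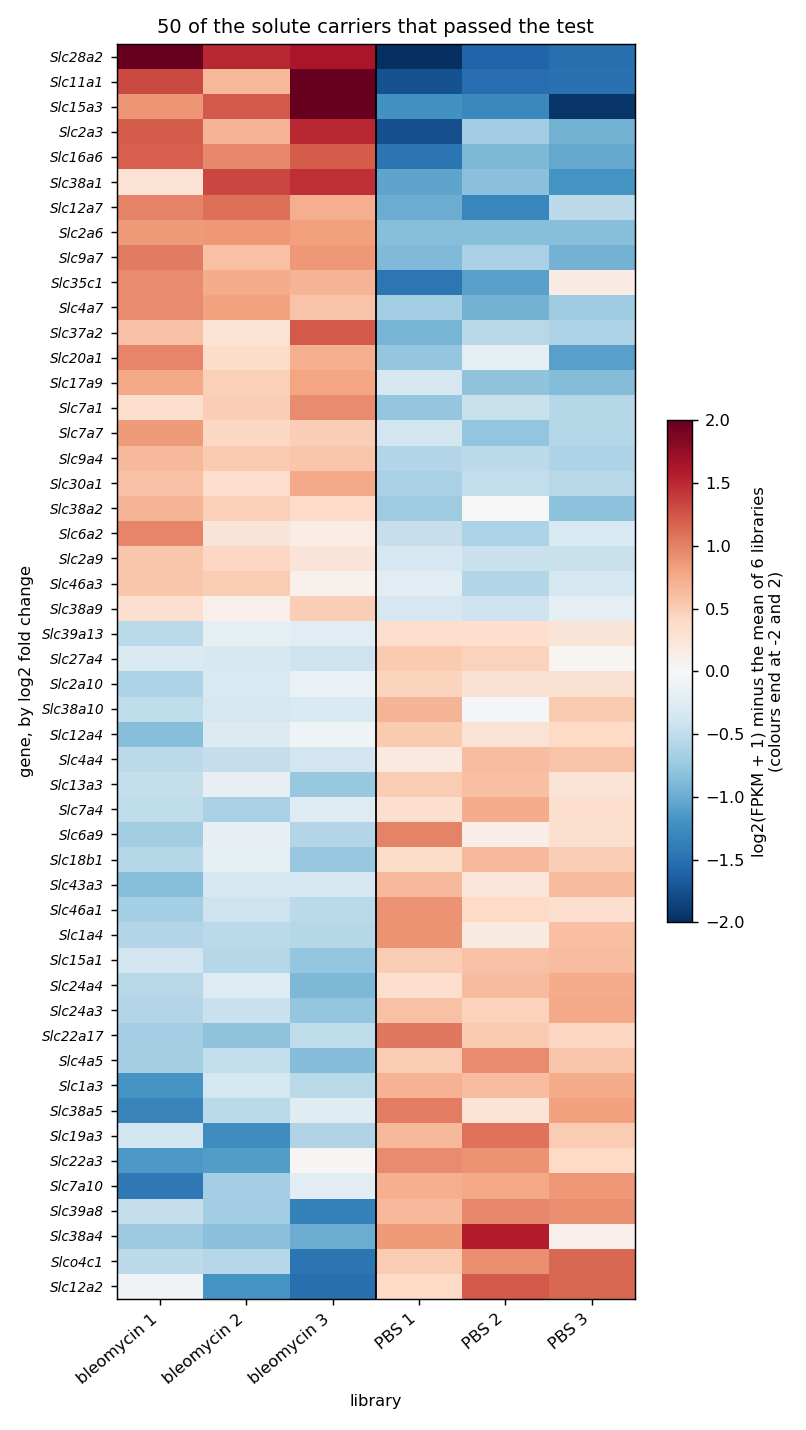
Of the 51 carriers that passed, 50 are shown, ordered by log2 fold change, in the 3 bleomycin libraries (left) and the 3 PBS libraries (right). Colour gives log2(FPKM + 1) minus the gene's mean over 6 libraries; the upper 23 genes passed as higher with bleomycin and the lower 27 as lower, and single libraries such as Slc12a2 in bleomycin replicate 1 lie near the gene's mean.

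Amino acid, peptide and amine carriers formed the largest class, with 7 of 37 higher and 10 lower. Over all genes 15.2% rose and 7.34% fell. The Slc38 family, sodium-coupled carriers of glutamine and other neutral amino acids, split evenly, with 3 of 8 higher and 3 lower. Slc38a1, a plasma membrane glutamine importer, was at 5.87, 13.1 and 14.4 FPKM with bleomycin, against 1.69, 2.16 and 1.46 FPKM with PBS. All 3 bleomycin values lay above the highest PBS value, and the gene rose by 2.05 ± 0.33 (log2 fold change ± SE, limma adjusted p = 0.00689). Slc38a2, which starved or growing cells use for the same substrates, was at 49.4, 43.0 and 39.9 FPKM with bleomycin and at 18.3, 30.5 and 16.8 FPKM with PBS. It rose by 1.02 (adjusted p = 0.0289), but no longer passed when any 1 library except PBS replicate 2 was left out (adjusted p 0.0505 to 0.0892), or with median scaling (0.0659).

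Slc38a4, which lies beside these 2 genes, went the other way. The 3 genes stand in a row on mm10 chromosome 15, Slc38a1 at 96571418 to 96642913, Slc38a2 at 96687394 to 96699698 and Slc38a4 at 96994823 to 97055956, all on the minus strand, with gaps of 44.5 and 295 kb. Slc38a4, a neutral amino acid carrier of liver and placenta, was at 1.89, 1.68 and 1.40 FPKM with bleomycin, against 7.65, 13.3 and 4.14 FPKM with PBS. It fell by 1.70 on the log2 scale (adjusted p = 0.0201), with the call lost without PBS replicate 1 (adjusted p = 0.0626) or any 1 bleomycin library (0.0545 to 0.0596). Both listed transcripts were lower, but not alike. The shorter one, Slc38a4-202, was listed at 0 in each bleomycin library and at 2.80, 12.2 and 1.40 FPKM with PBS. The longer one, Slc38a4-201, was at 1.89, 1.68 and 1.40 FPKM with bleomycin and at 4.84, 1.04 and 2.75 FPKM with PBS, so these values overlapped. The estimate divides shared reads between the transcripts, and the split is uncertain. The start windows of the pair are shown because their transcripts were listed so differently. Each runs from 250 bases before to 50 bases after a RefSeq start site (GRCm38.p6, minus strand), with capitals on the first 10 bases of the listed transcript.
Slc38a4-201, chr15:97055907-97056206: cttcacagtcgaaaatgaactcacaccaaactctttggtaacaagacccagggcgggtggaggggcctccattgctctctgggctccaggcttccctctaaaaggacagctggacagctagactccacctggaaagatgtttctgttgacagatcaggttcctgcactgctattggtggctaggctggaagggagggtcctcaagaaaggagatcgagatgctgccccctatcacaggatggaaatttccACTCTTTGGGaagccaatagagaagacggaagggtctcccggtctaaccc
Slc38a4-202, chr15:97020310-97020609: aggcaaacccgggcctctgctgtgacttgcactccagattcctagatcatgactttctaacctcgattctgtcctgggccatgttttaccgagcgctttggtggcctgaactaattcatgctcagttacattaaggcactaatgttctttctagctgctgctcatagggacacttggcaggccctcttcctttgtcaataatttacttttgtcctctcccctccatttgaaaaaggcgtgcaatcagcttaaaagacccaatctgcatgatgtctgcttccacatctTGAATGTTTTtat
The first base of Slc38a4-201 is the RefSeq start site itself, and that of Slc38a4-202 lies 37 bases inside the window's start site.

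**Figure D3:**
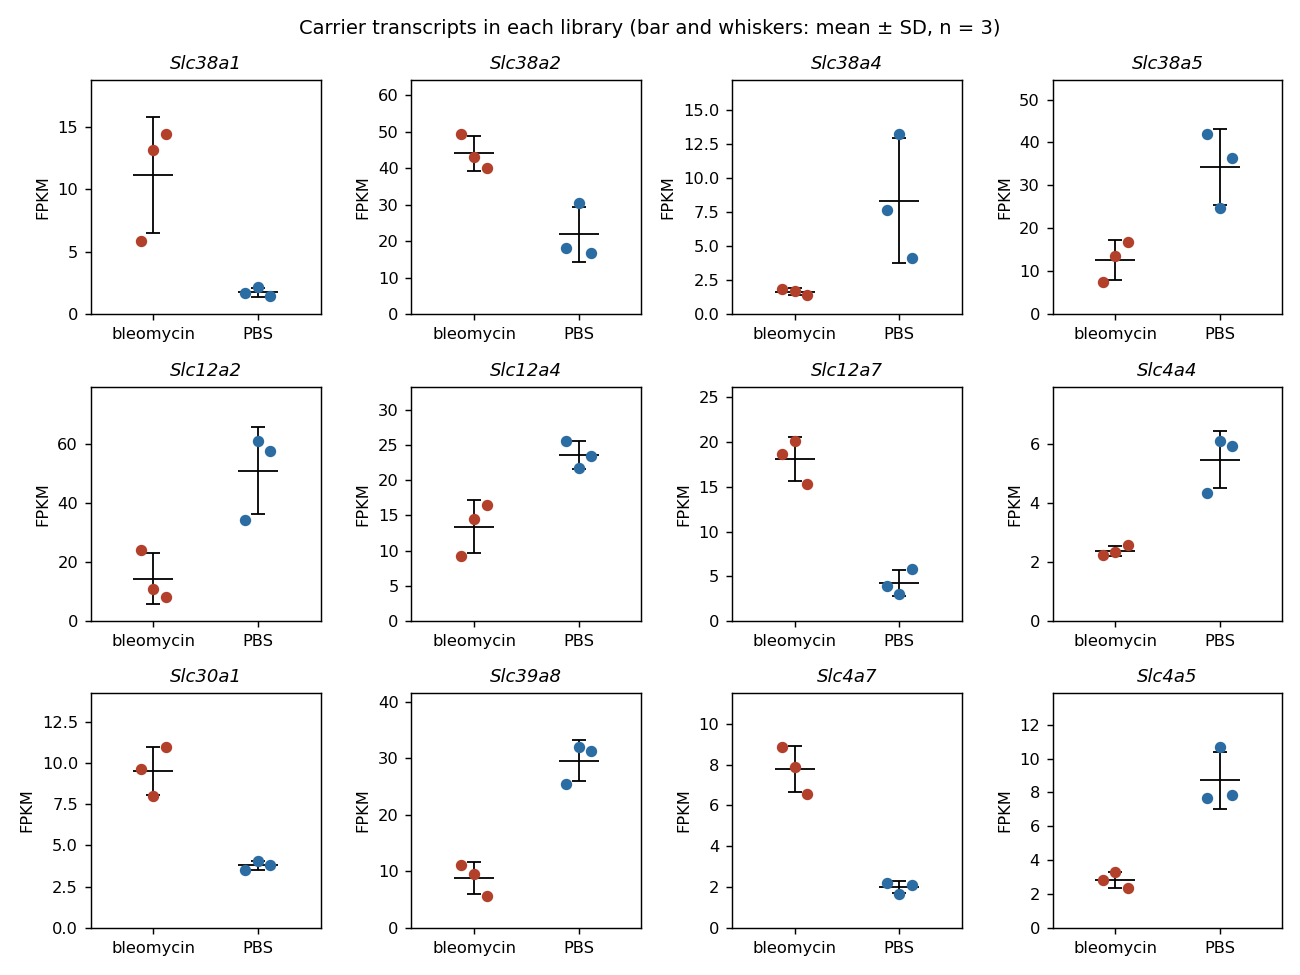
FPKM (vertical axes, from 0) of 12 carriers of amino acids, chloride, zinc and bicarbonate in the 3 bleomycin libraries (red, left) and the 3 PBS libraries (blue, right), with mean ± SD. Slc38a1, Slc12a7 and Slc4a7 are higher in every bleomycin library, and Slc38a4, Slc39a8 and Slc4a5 lower in every bleomycin library, than in any PBS library.

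Of the remaining Slc38 genes 2 fell and 1 rose, and 2 of 3 Slc1 glutamate and neutral amino acid carriers fell. Beside these counts, 15.2% of all genes rose and 7.34% fell. Slc38a5, a glutamine carrier that also works in reverse, was at 7.46, 13.6 and 16.8 FPKM with bleomycin and at 42.0, 24.7 and 36.3 FPKM with PBS (adjusted p = 0.0266). Slc38a10 averaged 14.7 ± 1.15 FPKM with bleomycin and 26.5 ± 6.77 FPKM with PBS (SD, n = 3 each, adjusted p = 0.0476). Slc38a9, a lysosomal arginine sensor upstream of mTORC1, rose by 0.63 (adjusted p = 0.0497), and this call was lost without any 1 library (adjusted p 0.0675 to 0.128). Slc1a3, the glutamate transporter known from astrocytes, was at 5.61, 10.8 and 9.30 FPKM with bleomycin and at 23.3, 22.002 and 24.0 FPKM with PBS, a fall of all 3 libraries below the lowest PBS value (-1.37 ± 0.24, adjusted p = 0.00884). Slc1a4, a neutral amino acid exchanger, changed by -1.12. Slc1a5, the main glutamine exchanger of dividing cells, averaged 27.2 FPKM with bleomycin and 38.7 FPKM with PBS (adjusted p = 0.129). Slc6a9, a glycine transporter, fell by 0.97 on the log2 scale, with the call lost without any 1 library (adjusted p 0.0555 to 0.139). Slc38a5 no longer passed when any 1 library except PBS replicate 2 or bleomycin replicate 3 was left out (0.0502 to 0.0821). Slc38a10 missed it without any 1 library but PBS replicate 2 (0.0807 to 0.131).

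Among the Slc7 carriers of cationic and large neutral amino acids, 2 of 8 rose and 2 fell. Of all genes tested 15.2% rose and 7.34% fell. Slc7a1, the general arginine and lysine importer, was at 4.88, 5.55 and 7.91 FPKM with bleomycin and at 1.70, 2.42 and 2.12 FPKM with PBS. It rose by 1.19 ± 0.22 (adjusted p = 0.0108). Slc7a7, which exports arginine in gut, kidney and macrophages, averaged 7.74 ± 1.47 FPKM with bleomycin and 2.90 ± 0.573 FPKM with PBS, a rise of 1.16. Slc7a10, an exchanger of alanine, serine and cysteine, was at 5.003, 9.13 and 12.8 FPKM with bleomycin and at 25.3, 26.4 and 28.5 FPKM with PBS. The PBS values lay close together and all above the bleomycin values, a change of -1.56 ± 0.30 (adjusted p = 0.0144, and 0.0518 without PBS replicate 3). Slc7a4, a relative of the cationic carriers, changed by -0.94, and no longer passed when PBS replicate 2 or bleomycin replicate 1 or 2 was left out (adjusted p 0.0555 to 0.0675). The heavy chain Slc3a2, which escorts several Slc7 light chains to the membrane, had the second-highest mean of all 182 carriers and did not pass, with 84.5 ± 11.4 FPKM in bleomycin libraries and 62.9 ± 19.2 FPKM in PBS libraries (adjusted p = 0.232). Its light chain Slc7a5 did not pass either (adjusted p = 0.298).

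Slc43a3, a purine nucleobase transporter placed here by its Slc43 family, had the highest mean of all members. It was at 52.3, 74.1 and 74.8 FPKM with bleomycin, against 149, 112 and 147 FPKM with PBS, a change of -1.02 ± 0.21 (adjusted p = 0.0176, and 0.0575 without PBS replicate 1 and 0.0609 without PBS replicate 3). Of the 4 Slc15 peptide carriers, 1 rose and 1 fell, where 15.2% of all genes rose and 7.34% fell. Slc15a1, the di- and tripeptide importer of the gut, averaged 0.918 ± 0.262 FPKM with bleomycin and 3.21 ± 0.178 FPKM with PBS (-1.14, adjusted p = 0.00519). Slc15a2, its high-affinity relative found in AT2 cells, was at 17.5, 17.8 and 8.65 FPKM with bleomycin and at 24.9, 21.8 and 20.1 FPKM with PBS, and did not pass (adjusted p = 0.165). Slc15a3, a lysosomal carrier of histidine and peptides, was at 6.66, 8.77 and 19.8 FPKM with bleomycin, against 0.801, 0.696 and 0.0845 FPKM with PBS (2.96 ± 0.41, adjusted p = 0.00361). Slc15a4, another lysosomal carrier, did not pass (adjusted p = 0.515). The noradrenaline transporter Slc6a2 rose by 0.93 (adjusted p = 0.0479), with the call lost without any 1 library but bleomycin replicate 3 (adjusted p 0.0822 to 0.126).

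Of 17 sugar and inositol carriers 4 rose and 1 fell, where 15.2% of all genes rose and 7.34% fell. Slc2a3, the high-affinity glucose transporter GLUT3 of neurons and leukocytes, was at 6.88, 4.42 and 8.69 FPKM with bleomycin, against 0, 1.11 and 0.753 FPKM with PBS (adjusted p = 0.00554). Slc2a6, a glucose transporter family member of lysosomes, was at 2.23, 2.27 and 2.18 FPKM with bleomycin and listed at 0 in each PBS library (adjusted p = 0.000463). Slc2a9, a urate transporter, averaged 1.77 ± 0.292 FPKM with bleomycin and 0.567 ± 0.0675 FPKM with PBS, a rise of 0.82 (adjusted p = 0.0145) that no longer passed without PBS replicate 2 or 3 (0.0507 and 0.055) and with quantile normalization (0.149). Slc2a10, a family member linked to arterial wall disease in humans, changed by -0.71 (adjusted p = 0.0394), and missed the threshold without any 1 library but bleomycin replicate 3 (0.0874 to 0.103). Slc37a2, a sugar phosphate exchanger of the endoplasmic reticulum that macrophages express strongly, rose by 1.39 (adjusted p = 0.0153, but 0.0556 without PBS replicate 1, 0.0531 with quantile normalization and 0.136 from the highest transcript alone). The member of the class with the highest mean, the sugar carrier Slc50a1, did not pass (adjusted p = 0.969).

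Of 29 carriers of inorganic ions and acid-base equivalents 5 rose and 6 fell, where 15.2% of all genes rose and 7.34% fell. The chloride cotransporters of Slc12, which set cell volume and chloride, moved in opposite senses. Slc12a2, the sodium-potassium-chloride importer NKCC1, was at 24.2, 10.7 and 8.31 FPKM with bleomycin, against 34.2, 61.2 and 57.8 FPKM with PBS. Its groups did not overlap, and it changed by -1.85 ± 0.41 (adjusted p = 0.0228), the lowest of the 182. Leaving out any 1 library except replicate 1 of either group gave adjusted p of 0.0534 to 0.0755. The potassium-chloride exporter Slc12a7 (KCC4) was at 18.7, 20.2 and 15.4 FPKM with bleomycin and at 3.97, 3.00 and 5.87 FPKM with PBS. It rose by 1.88 ± 0.24 (adjusted p = 0.00258). Slc12a4 (KCC1) changed by -0.80 (adjusted p = 0.0488), a call lost without any 1 library but bleomycin replicate 3 (0.0815 to 0.122).

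The bicarbonate carriers of Slc4 also parted. Slc4a7, an electroneutral sodium-bicarbonate importer, was at 8.84, 7.91 and 6.59 FPKM with bleomycin, against 2.19, 1.65 and 2.12 FPKM with PBS (1.55 ± 0.18, adjusted p = 0.00183). The electrogenic carriers were lower, Slc4a5 with 2.84, 3.31 and 2.34 FPKM with bleomycin, against 7.65, 10.7 and 7.86 FPKM with PBS (-1.34 ± 0.20, adjusted p = 0.00478). Slc4a4 changed by -0.92 (adjusted p = 0.0147), and no longer passed when PBS replicate 3 or bleomycin replicate 1 or 2 was left out (0.0505 to 0.0543). Of the sodium-hydrogen exchangers, Slc9a7 of the trans-Golgi network averaged 3.33 ± 0.667 FPKM with bleomycin and 0.366 ± 0.154 FPKM with PBS (1.66, adjusted p = 0.00165). Slc9a4, known from stomach and kidney, was at 1.42, 1.22 and 1.25 FPKM with bleomycin and at 0.0277, 0.0695 and 0 FPKM with PBS (adjusted p = 0.00229). Both tested potassium-dependent sodium-calcium exchangers fell, Slc24a3 by 1.20 and Slc24a4 by 1.15 on the log2 scale (adjusted p of 0.00442 and 0.0137, the second 0.0512 without PBS replicate 3). The share of all genes that fell was 7.34%. Within Slc24a3 the long transcript Slc24a3-001 averaged 1.64 FPKM with bleomycin and 7.96 FPKM with PBS, while the shorter Slc24a3-201 averaged 1.43 FPKM with bleomycin and 0.364 FPKM with PBS.

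Of 26 metal and heme carriers 2 rose and 2 fell, where 22.5% of all genes passed in either direction, and these included the zinc carriers at opposite ends of the cell's zinc balance. Slc39a8 (ZIP8), a plasma membrane importer of zinc and manganese, was at 11.2, 9.53 and 5.65 FPKM with bleomycin, against 25.5, 31.9 and 31.3 FPKM with PBS (-1.68 ± 0.25, adjusted p = 0.00519). Slc39a13, a zinc carrier of intracellular membranes, changed by -0.63 (adjusted p = 0.0396), a call lost without any 1 library (0.0582 to 0.105). Slc30a1 (ZnT1), the zinc exporter of the plasma membrane, was at 9.61, 8.02 and 10.9 FPKM with bleomycin, against 3.52, 4.04 and 3.84 FPKM with PBS (1.12 ± 0.17, adjusted p = 0.00563). The other 5 tested Slc30 genes and the other 9 tested Slc39 genes did not pass. The metallothionein genes, which like Slc30a1 are known targets of the zinc-sensing factor MTF1, did not pass: Mt1 averaged 83.5 ± 20.5 FPKM with bleomycin and 113 ± 66.4 FPKM with PBS (adjusted p = 0.724), and Mt2 averaged 91.4 ± 13.4 FPKM with bleomycin and 85.5 ± 40.6 FPKM with PBS (adjusted p = 0.724). The start window of Slc30a1 (RefSeq, GRCm38.p6, plus strand) is shown for the letters TGCNCNC, the core of the element that MTF1 is known to bind, searched on both strands, with matches in capitals.
Slc30a1, chr1:191906531-191906830: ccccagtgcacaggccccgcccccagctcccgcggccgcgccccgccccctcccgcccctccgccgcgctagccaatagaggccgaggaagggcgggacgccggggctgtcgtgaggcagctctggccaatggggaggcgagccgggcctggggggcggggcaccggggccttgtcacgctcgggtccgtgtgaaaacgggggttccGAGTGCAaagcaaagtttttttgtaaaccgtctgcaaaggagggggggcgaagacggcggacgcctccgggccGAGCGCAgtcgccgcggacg
It held 2 matches, both on the minus strand. Of the 32851 windows in the RefSeq table, 51% hold 1 or more and 20.2% hold 2 or more.

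Iron and heme carriers were led by Slc11a1 (NRAMP1), which pumps iron and manganese out of phagosomes in macrophages and neutrophils. It was at 7.38, 4.34 and 21.8 FPKM with bleomycin, against 0, 0.172 and 0.188 FPKM with PBS (adjusted p = 0.00656). Every bleomycin value lay above every PBS value, with replicate 3 highest. Its relative Slc11a2, the ubiquitous iron importer DMT1, was at 12.3, 12.7 and 11.5 FPKM with bleomycin and at 11.4, 10.5 and 11.2 FPKM with PBS (0.13 ± 0.14, adjusted p = 0.549). Slc40a1, the iron exporter ferroportin, did not pass (adjusted p = 0.489). Slc48a1, a heme carrier of the lysosome with the highest mean of the class, was at 4.92, 38.2 and 40.4 FPKM with bleomycin and at 62.8, 44.9 and 48.5 FPKM with PBS. Bleomycin replicate 1 stood apart from the other 2, and the gene did not pass (adjusted p = 0.252).

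No organic ion or drug carrier rose, and 3 of 12 fell, where 15.2% of all genes rose and 7.34% fell. Slco4c1, a transporter of organic anions such as thyroid hormone and steroid conjugates known from kidney, had the highest mean of the class. It was at 14.7, 14.3 and 7.22 FPKM with bleomycin, against 31.2, 42.2 and 49.1 FPKM with PBS (-1.71 ± 0.31, adjusted p = 0.0103). Slc22a17, a receptor for the iron-binding protein lipocalin-2, was at 5.58, 5.01 and 6.35 FPKM with bleomycin and at 20.9, 14.1 and 13.0 FPKM with PBS (-1.33 ± 0.22, adjusted p = 0.00689). Slc22a3, the organic cation transporter OCT3, was at 0.723, 0.751 and 2.88 FPKM with bleomycin and at 6.36, 6.08 and 4.02 FPKM with PBS. It changed by -1.49 (adjusted p = 0.0297), and the call was lost without any 1 library but bleomycin replicate 3 (0.0522 to 0.0914). The carnitine transporter Slc22a5 and the prostaglandin transporter Slco2a1 did not pass (adjusted p of 0.237 and 0.323).

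Nucleoside and nucleotide sugar carriers gave the gene with the largest log2 fold change of the 182 and otherwise few calls. In this class 2 of 24 were higher and none lower, where 15.2% of all genes rose and 7.34% fell. Slc28a2, a sodium-driven importer of purine nucleosides (mm10 chromosome 2, 122426477 to 122461137), was at 17.1, 11.8 and 12.9 FPKM with bleomycin, against 0.0792, 0.485 and 0.582 FPKM with PBS (3.44 ± 0.23, adjusted p = 0.000229). All 3 listed transcripts were higher, and Slc28a2-001 held most of the level, with a mean of 10.1 FPKM with bleomycin and 0.176 FPKM with PBS. Its neighbour Gm14085, named Slc28a2b in RefSeq, was at 4.79, 4.58 and 3.90 FPKM with bleomycin and at 0, 0.0302 and 0.0722 FPKM with PBS, and the division of reads between these related genes is uncertain. Slc35c1, which brings GDP-fucose into the Golgi, was at 11.1, 9.60 and 9.12 FPKM with bleomycin and at 1.33, 1.97 and 6.08 FPKM with PBS. It rose by 1.58 (adjusted p = 0.0373), and missed the threshold without any 1 library but PBS replicate 3 (0.074 to 0.108), with median scaling (0.0512), with quantile normalization (0.0509) and from its highest transcript alone (0.118). The other 19 tested Slc35 genes, most of them Golgi and endoplasmic reticulum carriers of nucleotide sugars, did not pass, with fold changes between -0.87 and 0.84. Slc29a1, the equilibrative nucleoside transporter with the highest mean of the class, averaged 28.1 FPKM with bleomycin and 45.5 FPKM with PBS (adjusted p = 0.19).

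Among carboxylate, bile acid and sulfate carriers 1 of 14 rose and 1 fell, where 15.2% of all genes rose and 7.34% fell. Slc16a6, a monocarboxylate carrier that exports ketone bodies from zebrafish liver, was at 11.1, 9.31 and 11.2 FPKM with bleomycin, against 0.918, 1.83 and 1.61 FPKM with PBS. The groups stood far apart beside their spread (2.25 ± 0.21, adjusted p = 0.000673). Slc13a3, a sodium-driven importer of succinate and other dicarboxylates, averaged 0.308 ± 0.270 FPKM with bleomycin and 1.46 ± 0.275 FPKM with PBS (-0.93, adjusted p = 0.0227, and 0.0631 to 0.0738 when PBS replicate 1, PBS replicate 2 or bleomycin replicate 1 was left out). Slc16a1, the lactate carrier MCT1, did not pass (adjusted p = 0.138), nor did Slc16a9, the member with the highest mean (adjusted p = 0.391).

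The remaining classes held the phosphate, vesicular, vitamin and lipid carriers. Of 6 tested phosphate, vesicular and urea carriers 2 rose and 1 fell, where 15.2% of all genes rose and 7.34% fell. Slc20a1, a sodium-phosphate importer of most cells, was at 27.3, 17.7 and 22.9 FPKM with bleomycin and at 7.44, 11.6 and 5.77 FPKM with PBS (1.38 ± 0.28, adjusted p = 0.0156). Slc17a9, which loads ATP into vesicles, averaged 3.33 ± 0.497 FPKM with bleomycin and 0.727 ± 0.367 FPKM with PBS (1.34, adjusted p = 0.00607). Slc18b1, a vesicular polyamine carrier, changed by -1.01 (adjusted p = 0.0154). Of 9 vitamin carriers, the lysosomal carrier Slc46a3 rose by 0.76, and Slc19a3, a thiamine importer, and Slc46a1, the proton-coupled folate importer, fell. Slc19a3 was at 0.802, 0 and 0.546 FPKM with bleomycin and at 2.69, 3.98 and 2.36 FPKM with PBS (adjusted p = 0.012, and 0.0517 with a pseudocount of 0.1). Slc46a1 averaged 1.27 ± 0.204 FPKM with bleomycin and 3.89 ± 1.12 FPKM with PBS (adjusted p = 0.014). Slc23a2, the ascorbate importer with the highest mean of the class, did not pass (adjusted p = 0.364). Of 8 carriers of fatty acids and choline 1 fell, Slc27a4, a fatty acid transport protein (-0.69, adjusted p = 0.0435). Slc44a2, a choline transporter-like protein with the highest mean of that class, averaged 51.2 ± 9.90 FPKM with bleomycin and 34.0 ± 3.07 FPKM with PBS and did not pass (adjusted p = 0.0751). Slc20a1 no longer passed when replicate 1 of PBS or of bleomycin was left out (0.0539 and 0.054) or from its highest transcript alone (0.0839), nor did Slc18b1 when bleomycin replicate 1 or PBS replicate 2 or 3 was (0.0503 to 0.0527). Slc46a3 missed it without any 1 library but bleomycin replicate 3 (0.0625 to 0.123), and Slc27a4 without any 1 library but PBS replicate 3 (0.0942 to 0.115).

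By the cells in which carriers are best known, 7 of 12 leukocyte carriers rose and none fell, and their median on the log2 scale was 1.28. Of the 7, 5 (Slc28a2, Slc11a1, Slc15a3, Slc37a2 and Slc2a6) were under 1 FPKM in every PBS library and passed the filter through the bleomycin libraries, so the count and the median are descriptions only. Over all genes 15.2% rose. At a filter of 5 FPKM 3 of the list rose. The 7 were Slc28a2, Slc11a1, Slc15a3, Slc2a3, Slc2a6, Slc37a2 and Slc7a7, and Slc29a3, Slc40a1, Slc15a4, Slco2b1 and Slc48a1 did not pass. In the same libraries the T and NK cell, B and plasma cell, and neutrophil markers all rose, 8 of 8, 6 of 6 and 6 of 6, and the macrophage and monocyte markers rose in 6 of 8, with list medians between 3.28 and 4.68. Of the risen markers, 5 of T and NK cells, 2 of neutrophils and 1 of macrophages were under 1 FPKM in every PBS library. They passed the filter through the bleomycin libraries, so these counts and medians are descriptions only. The summed neutrophil markers were 413 to 606 FPKM with bleomycin and 9.34 to 31.3 FPKM with PBS, and those of macrophages and monocytes, which include the AT2-expressed Lyz2, were 757 to 3725 FPKM with bleomycin and 1040 to 1401 FPKM with PBS. None of these markers was listed at 0 in all 3 libraries of a group. The part of leukocyte RNA in the 7 rises was not tested. Of 13 carriers listed as lysosomal 12 were tested and 5 rose (Slc11a1, Slc15a3, Slc37a2, Slc38a9 and Slc46a3), where 15.2% of all genes rose. Without 1 library 2 to 4 rose, lowest without PBS replicate 1. Of the 5, 3 passed the filter through the bleomycin libraries. The list holds Slc37a2, best known from the endoplasmic reticulum, and leaves out Slc2a6.

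**Figure D4:**
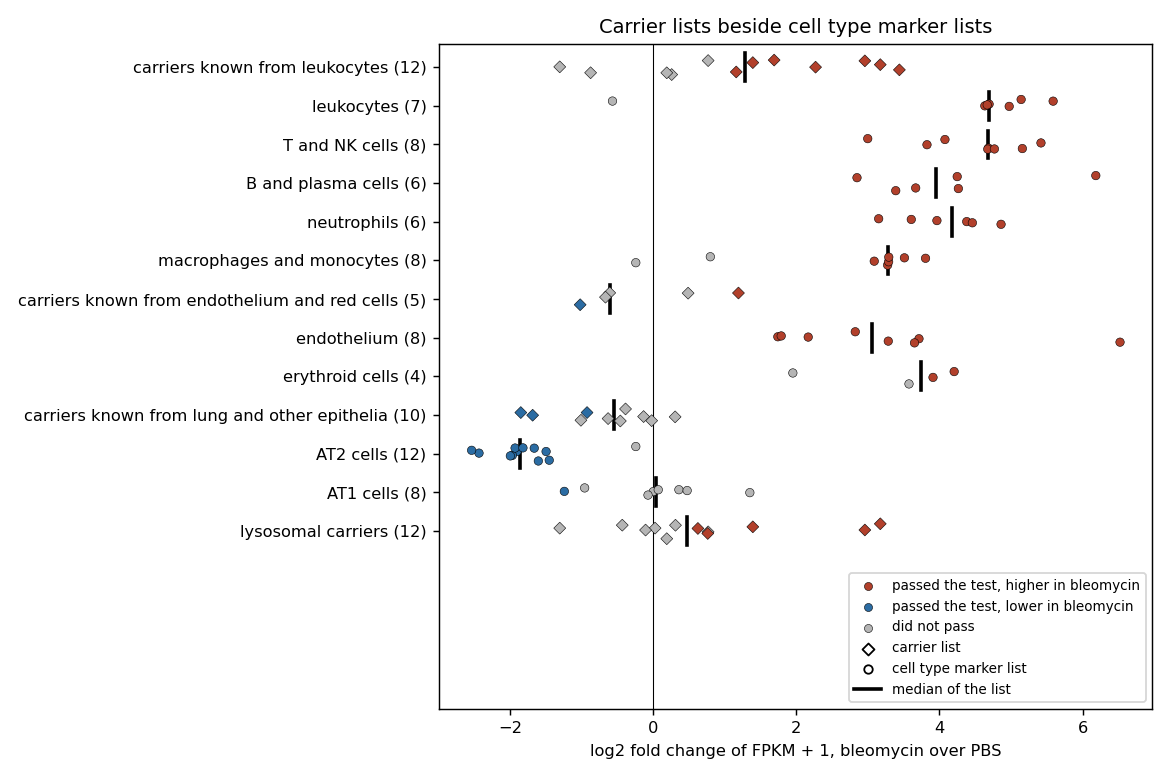
Log2 fold change of FPKM + 1 (bleomycin over PBS, horizontal axis) of the tested genes of 4 carrier lists (diamonds) and 9 cell type marker lists (circles), with the number of genes in brackets and black bars at the medians. The median of the leukocyte carriers (1.28) lies between 0 and that of the leukocyte markers (4.69), and the median of the epithelial carriers (-0.54) between 0 and that of the AT2 markers (-1.86), with single genes of both carrier lists on the other side of 0. The median of the carriers known from endothelium and red cells (-0.61) lies across 0 from that of the endothelial markers (3.05).

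Of 10 tested carriers known from lung and other epithelia 3 fell and none rose, with a median of -0.54, where 7.34% of all genes fell. The number was 2 or 3 without any 1 library other than PBS replicate 3, and 1 without that one. These were Slc12a2, Slc39a8 and Slc4a4, while Slc15a2, Slc6a14, Slc5a1, Slc22a5, Slc44a4, Slc9a3r1 and Slc23a1 did not pass. Slc1a1 and Slc22a4 of this list were below the filter. Slc9a3r1 is counted here, but is a scaffold protein and not a carrier. The 3 that fell changed by -0.92 to -1.85, and the median of the 12 AT2 markers was -1.86. The other epithelial marker lists did not move likewise. Of the 8 AT1 markers 1 fell, with a list median of 0.04. None of the 5 tested airway epithelium markers passed, with a median of 0.36. In bleomycin replicate 3, which had the lowest sum of AT2 markers, every tested gene of the epithelial carrier list except Slc4a4 had its lowest bleomycin value. This held for the genes that did not pass as well, while Slc4a4 had its highest bleomycin value there. Among the 12 largest falls, the carriers outside the list differed. Slco4c1, Slc38a4, Slc4a5, Slc24a3 and Slc24a4 were also lowest there, while Slc7a10, Slc38a5, Slc22a3 and Slc22a17 had their highest bleomycin values there. Slc1a3 was neither lowest nor highest in that replicate. That replicate also held the highest bleomycin sum of the fibroblast and smooth muscle markers, 707 FPKM. The part of fewer AT2 cells, or of other cells, in these values was not tested. While all 8 endothelial markers rose, of 5 tested carriers known from endothelium and red cells Slc7a1 rose, Slc43a3 fell, and Slco2a1, Slc9a3r2 and Slc6a4 did not pass. Of these, Slc9a3r2 is a scaffold protein and not a carrier.

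The pumps and partner proteins that carriers depend on gave 4 rises and 3 falls in 28 tested genes, from 30 listed. This share of 25% was near the 22.5% of all genes tested that passed. The rises numbered 2 without PBS replicate 2, and the falls 0 or 1 without any 1 library other than bleomycin replicate 3. Fxyd5, a regulator of the sodium-potassium pump, was at 259, 149 and 167 FPKM with bleomycin, against 12.6, 14.0 and 14.7 FPKM with PBS, a rise of 3.66 (adjusted p = 0.000201). The pump's beta subunit Atp1b3 rose by 0.68 (adjusted p = 0.0175, 0.0503 to 0.0677 when any 1 library except PBS replicate 1 or bleomycin replicate 3 was left out). The iron store gene Fth1 rose by 1.41 (adjusted p = 0.0133, and 0.0513 without PBS replicate 2). Bsg, the escort of the lactate carriers, averaged 110 ± 14.3 FPKM with bleomycin and 184 ± 20.003 FPKM with PBS and changed by -0.75 (adjusted p = 0.0261, lost without any 1 library, 0.0505 to 0.0697). The ferroxidase gene Heph changed by -0.86 (adjusted p = 0.0495), and missed the threshold without any 1 library but bleomycin replicate 3 (0.0867 to 0.138) and from the highest transcript alone (0.0617). Of the 5 carriers left out by name, Slc34a2 and Slc26a9 fell (-2.54 and -2.05), and Slc16a3, Slc7a11 and Slc2a1 rose (1.83, 0.91 and 0.87). Slc7a11 was under 1 FPKM in every PBS library and passed the filter through the bleomycin libraries, so its rise is a description only. The call of Slc2a1 was lost without bleomycin replicate 2 (adjusted p = 0.052), and that of Slc7a11 with quantile normalization (0.151).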

How the data were processed

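RNA was isolated with TRIzol and made into stranded libraries, per the labels' protocols, from 3 bleomycin and 3 PBS mice. HISAT2, StringTie, FastQC version 0.10.1 and the mm10 build are named per the submitters' processing notes. The annotation used, and any use of strand in counting, were not given in the sources used here. Each file, as deposited by the authors, holds 1 FPKM value for each of 24647 transcripts. Groups come from the sample titles. Transcripts were summed by gene ID, and 12326 genes at 1 FPKM or more in at least 3 libraries were tested on log2(FPKM + 1) with limma 3.58.1 in R 4.3.3 (eBayes with trend, Benjamini-Hochberg over all genes). The depth behind FPKM is unknown, and the 6 libraries limit the precision: an exact test of 3 against 3 cannot go below p = 0.1. An exact 0 can be a failed estimate. The members, the carrier and marker lists, and the substrate class of each family were chosen with earlier results of these data known. Named members are the 12 largest rises and the 12 largest falls among non-overlapping calls whose higher group averaged 5 FPKM or more, the highest mean of each class, and members of the carrier lists, with others where their family is described. A few genes are not reported here. RefSeq start windows were found for 138 of 182 members. The letters GAGGAAG, an ETS-type core, were also searched on both strands, with no match in the windows of Slc28a2 and Slc11a1, where 13.6% of all windows hold it. Alternatives were other pseudocounts, filters, scalings, transcript choice, variance models, a replicate block and leaving out each library.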

Additional observations from a re-analysis of the deposited data

How the results depend on the processing

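The 51 calls rest on 3 libraries a group, and depth is unknown. Carriers that rose numbered 24, and 17 to 21 without 1 library. Those that fell numbered 27, and 14 to 25 without 1 library. With a filter of 5 FPKM, which leaves 106 carriers to test, 13 rose, and 3 of the leukocyte carriers against 7. The 3 calls among epithelial carriers came to between 1 and 3 without 1 library. Over all genes 905 fell, and 1413 with median scaling, 1441 with quantile normalization and 457 to 873 without 1 library. With replicate number as a block, which nothing in the labels ties to shared mice or days (same-numbered deviations correlated at -0.0043 to 0.0391 over genes, and 3 of 6 libraries correlated best with their own number), 18 carriers rose and 17 fell, and 563 genes fell in all. No carrier that passed changed direction under any alternative run. Genes that did not pass and changed sign were Slc44a4 (0.11 with library weights, -0.13 to 0.19 without 1 library), Slc50a1 (-0.16 with median scaling, -0.10 with quantile normalization, -0.28 to 0.24 without 1 library) and Slc9a3r1 (0.31 with library weights, -0.61 to 0.14 without 1 library). The causes were not tested.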

Other observations

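Of the 182 carriers, 13 spread over more than 2 on the log2(FPKM + 1) scale within a group, and 12 of these did not pass. Slc39a7, a zinc carrier of the endoplasmic reticulum, was at 20.4, 24.4 and 37.9 FPKM with bleomycin and at 1.48, 55.5 and 8.22 FPKM with PBS, the widest range of all. Slc39a1, a zinc importer, was at 33.8, 7.94 and 45.6 FPKM with bleomycin and at 12.5, 10.2 and 58.5 FPKM with PBS. The copper carriers each had 1 library apart: Slc31a2 was at 2.17, 13.6 and 15.3 FPKM with bleomycin and at 14.0, 12.5 and 11.4 FPKM with PBS, and Slc31a1, the plasma membrane importer, was at 21.2, 16.7 and 13.4 FPKM with bleomycin and at 5.85, 9.31 and 37.2 FPKM with PBS. Slc39a9 was at 13.0, 12.9 and 2.06 FPKM with bleomycin and at 15.0, 16.1 and 16.2 FPKM with PBS. The library that stood apart differed between these genes, bleomycin replicate 1 for Slc48a1 and Slc31a2, bleomycin replicate 3 for Slc39a9, and PBS replicate 3 for Slc31a1. The pan-leukocyte gene Cd52 showed the same kind of range, at 0.583, 1.13 and 199 FPKM with bleomycin and at 9.48, 10.3 and 17.6 FPKM with PBS. The cause was not tested.

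Of the 51 carriers that passed, 22 have more than 1 listed transcript, and in 3 of them 1 transcript pointed against the gene. In Slc7a7 the transcripts Slc7a7-001 and Slc7a7-002 averaged 4.59 and 1.85 FPKM with bleomycin and 0.348 and 0.516 FPKM with PBS. The third, Slc7a7-005, which starts farther upstream, averaged 1.30 FPKM with bleomycin and 2.04 FPKM with PBS. Slc24a3-201 and Slc16a6-001 were the other 2. These are descriptions of single transcripts, with no test.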
